A study of Mus musculus with 9 samples.

Results

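Interferon-stimulated genes were followed in phagocytes sorted from the mouse peritoneal wall. The set was a named list of 39 genes. The rule picks them by symbol and uses no measured value, but the list was drawn up with earlier results of these data known. All 39 were among the 28764 gene symbols of the table. The filter on low values asked for 1 TPM or more in 3 or more of the 9 libraries. It kept 37 of the 39 and 10136 symbols in all. TPM is a transcript abundance that is corrected for transcript length and scaled to a fixed total over the transcripts quantified in a library, so levels of different genes can be compared. Ifit1 and Oasl1 reached 1 TPM in the 3 double-negative libraries alone, so they could enter the tests only as genes that were high there. Oas3 and Ifi44 were not tested.

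All animals were Cx3cr1gfp/+ Ccr2rfp/+ F1 mice, so every library comes from cells with a green reporter in 1 allele of Cx3cr1 and a red reporter in 1 allele of Ccr2, and no wild-type or interferon-treated group is analysed here. Age and sex are not stated here. The mice received 50 µg of fluorescent dextran into a vein 1 day before they were perfused and the tissue was digested, so cells that take up dextran could be told apart. From CD11b-positive, Ly6G-negative cells, 3 populations were sorted. Double-negative cells carried neither reporter, were dextran-positive and MHC class II-negative, and were 85 to 90% of the gate. Cells with the red reporter and MHC class II, called CCR2+ cells here, were 10 to 15%. Cells with the green reporter and MHC class II, called CX3CR1+ cells here, were 0.5 to 1.5%. The submitters call the first and the last sessile resident macrophages, and the CCR2+ cells migratory tissue monocytes. Each population has 3 libraries, labelled sort 1, 2A and 2B and read as 3 mice that each gave 1 library of every population. Values below are given in that order of sorts.

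Interferons are secreted cytokines that are made when a cell senses foreign or misplaced nucleic acid. Type I interferons bind a receptor built from Ifnar1 and Ifnar2, whose kinases Jak1 and Tyk2 phosphorylate Stat2. Stat2 acts together with Irf9 in a complex that binds the interferon-stimulated response element (ISRE) in the promoters of the genes described here. Interferon-gamma acts through another receptor, and the element known for it is the gamma-activated site (GAS). Macrophages also hold a low, tonic level of many of these genes without infection, and the transcription factors Irf7, Irf9 and Stat2 are themselves members of the set.

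The response element is shown first because it is the sequence the set is known for. Promoter windows of 300 bases (250 before the annotated start and 50 after) came from RefSeq on GRCm38.p6, and 29 of the 39 members had one. The ISRE core was searched as the letters GAAA, any 2 bases and GAAA, on either strand, and the GAS core as TTC, any 3 bases and GAA. An ISRE core was found for 16 of the 29 members (55.17%), against 1079 of 27025 genes with a window (3.99%). With 2 or 3 bases allowed between the blocks, 18 of 29 members (62.07%) matched, against 6.9% of all genes. A GAS core was found for 8 of 29 members (27.59%), against 9.55% of all genes, and in 2 of the members a GAS match overlapped an ISRE match. Of members that were called different in some comparison below, 7 of 14 had an ISRE core, and of those tested and never called, 8 of 13 had one. A match describes letters in a window and is no evidence of binding.

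Stretches of 60 bases are printed for 3 members that were lower in CCR2+ than in double-negative libraries (Ifit1, Ifit3 and Bst2) and 3 that no comparison called (Isg15, Igtp and Rsad2), 5′ to 3′ on the gene's own strand, with ISRE cores in capitals. None of these stretches overlaps an annotated exon of GENCODE M21.
Ifit1: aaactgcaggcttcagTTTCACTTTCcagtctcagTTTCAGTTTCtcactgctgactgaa
Ifit3: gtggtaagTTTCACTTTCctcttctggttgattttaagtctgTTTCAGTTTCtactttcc
Bst2: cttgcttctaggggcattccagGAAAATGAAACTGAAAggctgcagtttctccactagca
Isg15: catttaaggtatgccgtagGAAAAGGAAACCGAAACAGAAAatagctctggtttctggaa
Igtp: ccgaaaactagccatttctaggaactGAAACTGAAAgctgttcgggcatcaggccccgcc
Rsad2: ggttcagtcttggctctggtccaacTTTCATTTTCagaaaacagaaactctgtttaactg
The Ifit1 stretch lies at chr19:34640769-34640828, plus strand, and the Ifit3 stretch at chr19:34583365-34583424, plus strand. Each holds 2 separate cores, which begin at positions -104 and -85 from the start of Ifit1 and at -156 and -122 from the start of Ifit3. The Bst2 stretch (chr8:71537565-71537624, minus strand) holds 2 cores that share a GAAA block, and the Isg15 stretch (chr4:156200856-156200915, minus strand) holds 3 overlapping cores, the first at -78. Igtp (chr11:58199496-58199555, plus strand) and Rsad2 (chr12:26456538-26456597, minus strand) hold 1 core each. Isg15, with the most cores of these, was called in no comparison.

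**Figure D1:**
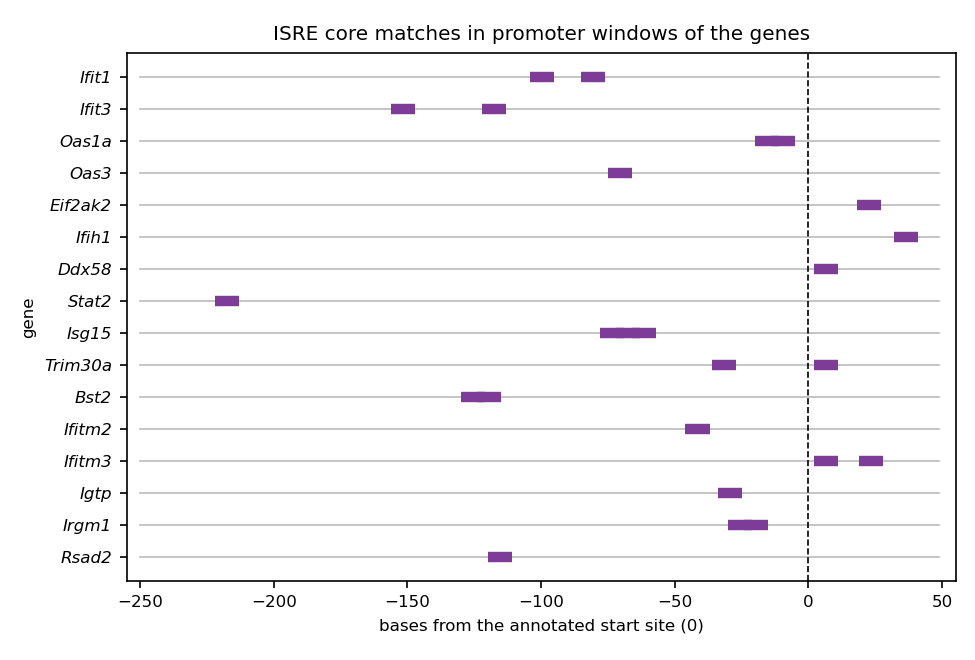
Positions of ISRE core matches (purple) in the 300-base promoter windows of the 16 members with a match, by gene (y axis), in bases from the annotated start site at 0 (x axis), where a gene with several windows is drawn on 1 line. Matches lie between -222 and 41.

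The libraries were first checked against their labels. Ccr2 was at 95.4, 111 and 115 TPM in CCR2+ libraries and at most 6.68 TPM in the other 6, and Cx3cr1 was at 6.51, 16.4 and 4.13 TPM in CX3CR1+ libraries and listed at 0 in the other 6. Of 7 macrophage markers, 7 were at 1 TPM or more in every double-negative and CX3CR1+ library and 6 in every CCR2+ library. In the CCR2+ libraries 4 monocyte markers other than Ccr2 (Ly6c2, Plac8, Vcan and Chil3) stayed at or below 3.41 TPM, as they did in all 9 libraries, while the dendritic cell marker sum was 110 to 158 TPM, against 27.5 to 63.4 in double-negative and 11.8 to 16.1 in CX3CR1+ libraries. Skeletal muscle markers summed to 821 TPM in CCR2+ and 1446 in CX3CR1+ libraries of sort 2A, against at most 302 in the other 7 libraries. The rows of the table added up to 324050 to 357087 TPM in double-negative, 356787 to 382828 in CCR2+ and 278579 to 301604 in CX3CR1+ libraries. Siglece alone took 102783 to 123879, 103398 to 115600 and 61107 to 87908 of these. Read counts are not part of TPM, so the depth behind each value is unknown. Each library was made from 1 ng of RNA, and the effect of this input on low values was not tested.

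At the level of the whole set, transcripts were most abundant in double-negative cells. The 39 genes together made up 837, 945 and 855 TPM in double-negative libraries, 542, 494 and 575 in CCR2+ libraries and 398, 441 and 429 in CX3CR1+ libraries. Neither of the other populations overlapped the double-negative one in this sum. The sums were not corrected for the total TPM listed in each library, which was lowest in CX3CR1+ libraries. Ly6e, Ifitm3 and Ifitm2 carried most of it, and the other 36 genes summed to 215 ± 13.5 TPM (SD, n = 3) in double-negative, 129 ± 13.3 in CCR2+ and 139 ± 2.88 in CX3CR1+ libraries. The last pair of ranges, 117 to 143 and 138 to 143 TPM, overlapped. By mean level, 31 of 39 genes were highest in double-negative cells, 6 in CCR2+ and 2 in CX3CR1+ cells, where the shares of the 10136 genes that passed the filter were 26.6%, 47.1% and 26.3%. The lowest mean was in CCR2+ cells for 22 genes, in CX3CR1+ cells for 16 and in double-negative cells for 1, against 32.7%, 35.8% and 31.6% of those 10136. In bulk RNA, fewer expressing cells and less RNA per cell cannot be told apart.

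Most of these genes were expressed at low levels. In all, 28 of the 39 stayed under 10 TPM in every library, and 3 had a mean over all libraries of at least 50 TPM. Apart from Ly6e, Ifitm2 and Ifitm3, the highest value in any library was 30.9 TPM, for Trim30a. A value above 0 was listed in every library for 38 genes. The exception was Isg15, which was listed at 0 in 1 CX3CR1+ library.

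**Figure D2:**
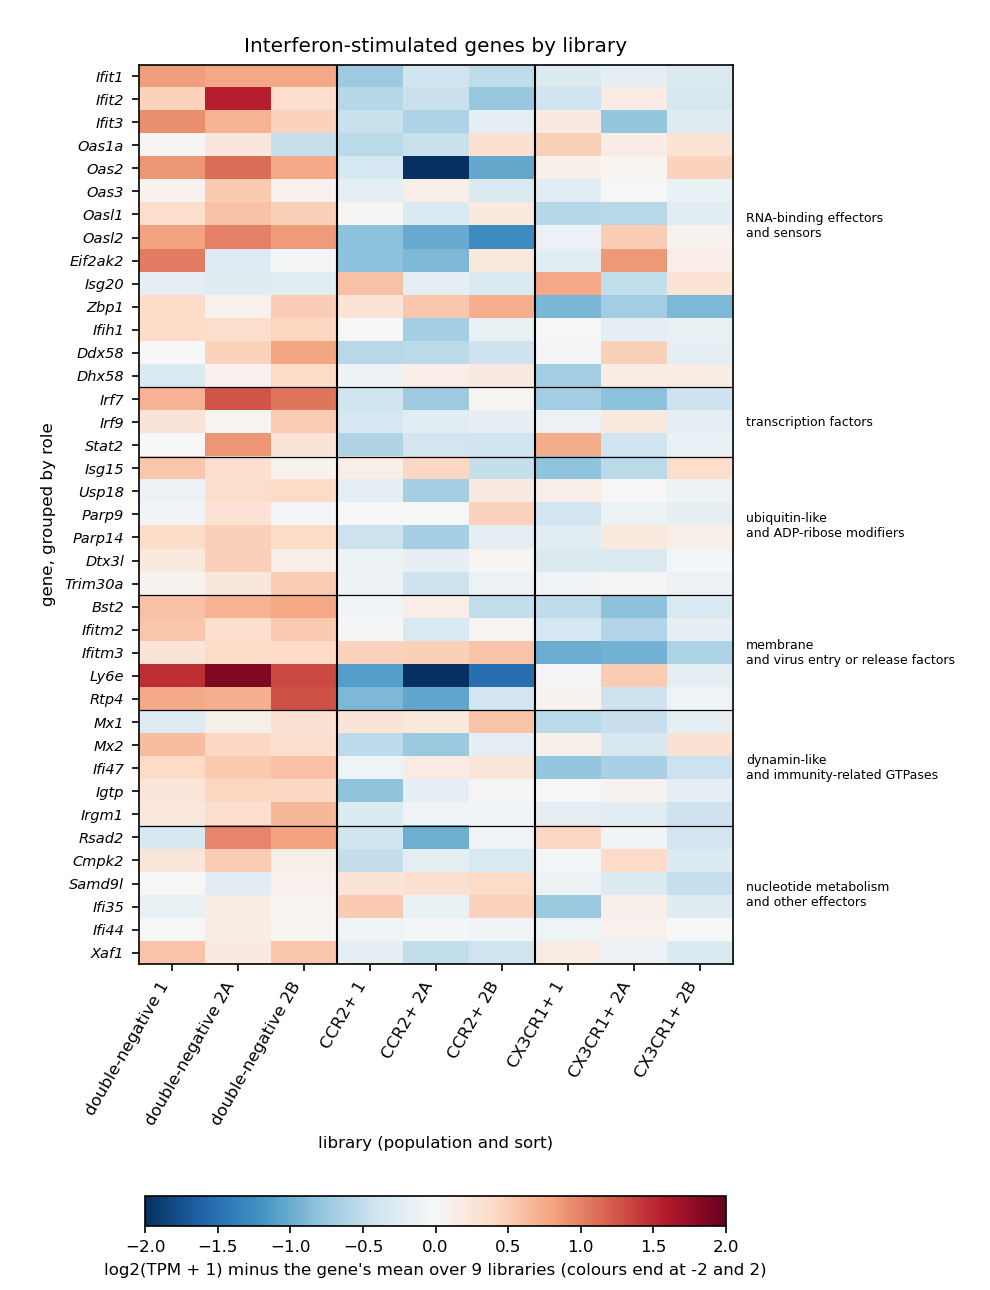
Level of each of the 39 genes (rows, grouped by role) in each of the 9 libraries (columns), as log2(TPM + 1) minus the gene's mean over the libraries, with red above and blue below that mean. The 3 double-negative columns are red for most genes, while Zbp1 and Ifitm3 are blue in the CX3CR1+ columns alone.

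Differences were tested with limma on log2(TPM + 1) over the 10136 genes that passed the filter, and a call means a Benjamini-Hochberg adjusted p below 0.05. The 3 comparisons share libraries, so their values are given side by side and are not independent of each other. CCR2+ cells, set against double-negative cells, had 15 of the 37 tested members lower and 0 higher. Of all genes tested, 9.88% were lower and 14.9% higher in that comparison. The median log2 fold change was -0.61 over the tested members, or -0.57 over all 39, and 0.09 over all genes. CX3CR1+ cells, set against double-negative cells, had 10 of 37 lower and 0 higher, where 1.61% of all genes were lower and 1.16% higher. The median there was -0.50 over the tested members, or -0.47 over all 39, and -0.03 over all genes. Between the reporter-positive populations, 3 members were higher and 5 lower in CX3CR1+ than in CCR2+ cells, against 8.96% and 17.3% of all genes, with a member median of 0.16 and an all-gene median of -0.11. Ifit1 and Oasl1 entered through the double-negative libraries, where they are high. Without them, the lower calls against double-negative cells were 14 of 35 in CCR2+ and 8 of 35 in CX3CR1+ cells. The 35 genes still include Irf7, Ifit2 and Mx2, which also needed their double-negative libraries to pass the filter. Irf7 reached 1 TPM in 1 CCR2+ and 0 CX3CR1+ libraries, Ifit2 in 0 and 1, and Mx2 in 0 and 2. For each of the calls, the 3 libraries of one population lay wholly above the 3 of the other. With 3 libraries each, a call leaves little room for overlap, so this is no separate support. The share among all called genes was not counted.

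Directions were also counted within each sort. In sorts 1, 2A and 2B, 32, 32 and 31 of 39 genes were lower in the CCR2+ than in the double-negative library of the same sort, where 48.0%, 42.2% and 43.1% of the genes tested were lower. In the CX3CR1+ library 34, 35 and 35 were lower, against 57.1%, 49.9% and 52.1% of the genes tested. Between the reporter-positive libraries, 16, 17 and 20 of 39 were lower in CX3CR1+ cells, against 55.6%, 54.8% and 58.1%. The counts of calls depended on the number of libraries. In CCR2+ against double-negative cells, 6 members were called lower when sort 1, 2A or 2B was left out, and 9 without double-negative library 2B. In CX3CR1+ against double-negative cells, 0, 2 and 1 were called lower without sorts 1, 2A and 2B, and 4, 4 and 2 without double-negative library 1, 2A or 2B. In CX3CR1+ against CCR2+ cells, the 5 lower calls became 2, 3 and 2 without those sorts, 3 without CX3CR1+ library 1, 3 without CCR2+ library 2A and 2 without CCR2+ library 2B.

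**Figure D3:**
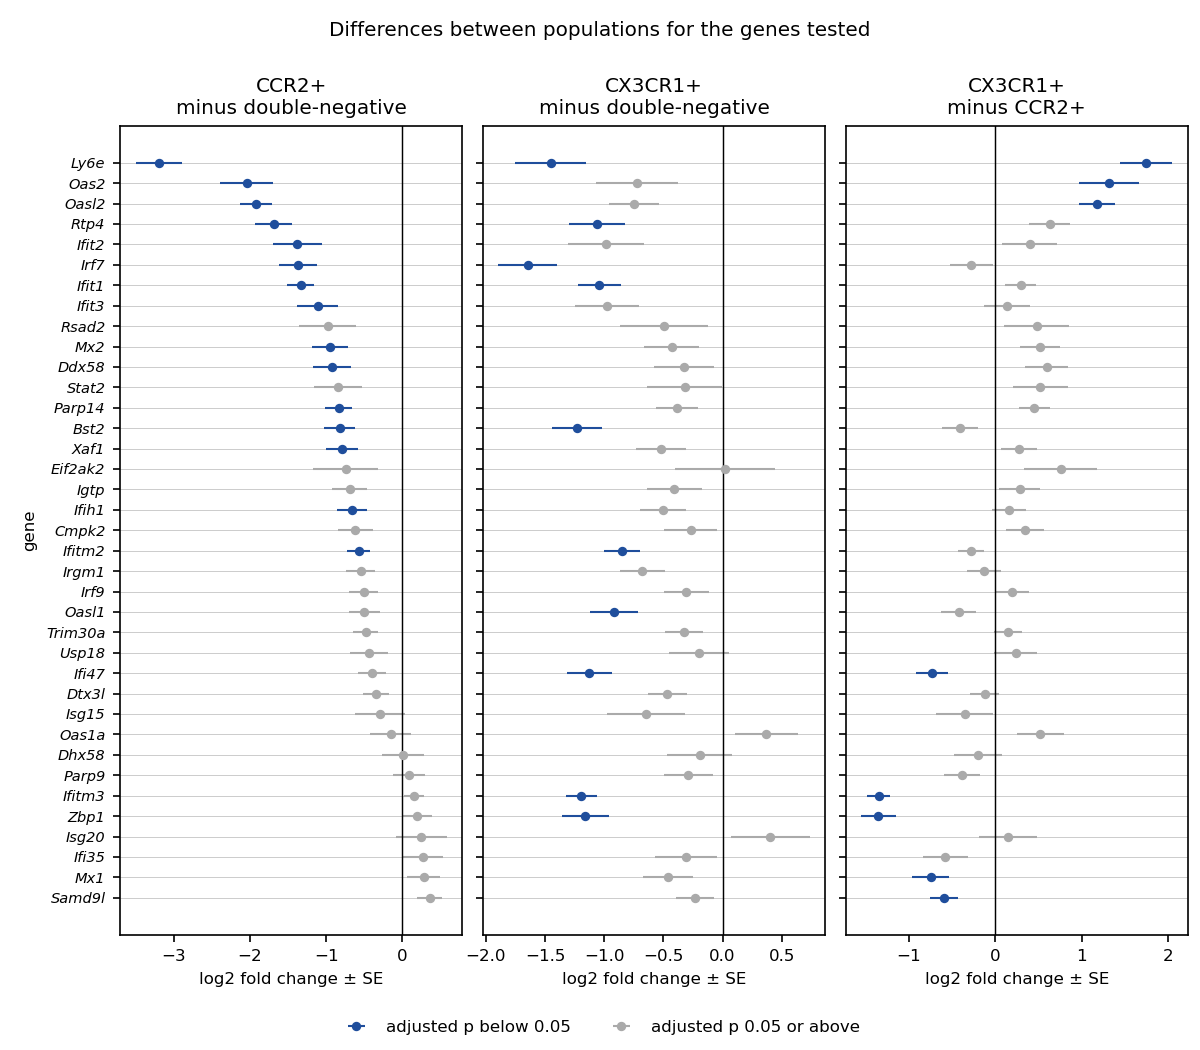
Log2 fold change on log2(TPM + 1) (x axis, bars are the SE) for the 37 tested genes (y axis, ordered by the first panel) in the 3 comparisons, with called genes in blue and the others in grey. In the first panel 15 genes are called, in the second 10 and in the third 8, and every blue point in the first and second panels is left of 0.

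The membrane and virus entry or release factors were the role group with the most abundant transcripts. All 5 were called lower in CX3CR1+ than in double-negative cells, and 4 of 5 in CCR2+ cells. Of all genes tested, 1.61% and 9.88% were lower in these comparisons. Ly6e (chr15:74955051-74959905, plus strand) encodes a lipid-anchored surface protein that limits the entry of some viruses. It was at 267, 344 and 238 TPM in double-negative, 43.6, 17.8 and 32.7 in CCR2+ and 91.9, 136 and 83.7 in CX3CR1+ libraries. The 3 populations did not overlap: double-negative cells were highest, CX3CR1+ cells intermediate and CCR2+ cells lowest. The mean was 9.02-fold higher in double-negative than in CCR2+ cells (log2 fold change -3.20, SE 0.30, adjusted p = 3.53e-05), and CX3CR1+ exceeded CCR2+ cells 3.31-fold (log2 fold change 1.75, SE 0.30, adjusted p = 0.00187). The step from double-negative to CX3CR1+ cells was 2.73-fold (log2 fold change -1.45, SE 0.30, adjusted p = 0.033), and was not called with the sort as a replicate block (adjusted p = 0.0595).

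Ifitm3 (chr7:141009586-141010770, minus strand) and Ifitm2 (chr7:140954837-140955987, minus strand) lie 53599 bases apart and encode membrane proteins that block the fusion of enveloped viruses. Ifitm3 was at 255, 280.3 and 281 TPM in double-negative, 294, 296 and 319 in CCR2+ and 107, 111 and 139 in CX3CR1+ libraries. The CX3CR1+ libraries were all below the other 6, which was a drop against double-negative cells (log2 fold change -1.19, SE 0.13, adjusted p = 0.00156) and against CCR2+ cells (log2 fold change -1.35, SE 0.13, adjusted p = 5.68e-05). CCR2+ and double-negative cells were close (log2 fold change 0.16, adjusted p = 0.462), and the sign of that difference turned with quantile normalization and with rescaling. Ifitm2 had another order. It was at 115, 98.4 and 112 TPM in double-negative, 75.7, 62.6 and 80.4 in CCR2+ and 60.5, 51.5 and 68.0 in CX3CR1+ libraries, so that double-negative cells were above both others (log2 fold change -0.57, adjusted p = 0.0203 for CCR2+ and log2 fold change -0.85, adjusted p = 0.0171 for CX3CR1+ cells). In the annotation, 268 exon bases of Ifitm2 are shared with the gene model Gm45717 on the same strand, and how reads were split between them is not stated.

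Bst2 encodes tetherin, which holds budding virus particles at the cell surface. It was at 12.7, 13.7 and 14.5 TPM in double-negative, 7.74, 9.04 and 5.46 in CCR2+ and 5.43, 4.14 and 6.35 in CX3CR1+ libraries. Both reporter-positive populations were below the double-negative one (log2 fold change -0.82, adjusted p = 0.0153 and log2 fold change -1.23, adjusted p = 0.0125). Bst2 is also a marker of plasmacytoid dendritic cells, the main producers of type I interferon. The 7 other markers on that list summed to 80.1 to 109 TPM in double-negative, 16.3 to 26.5 in CCR2+ and 77.9 to 108 in CX3CR1+ libraries. Siglech (23.1 to 43.9, 1.20 to 3.35 and 24.6 to 43.1 TPM) and Tcf4 (53.6 to 63.5, 14.0 to 19.6 and 51.5 to 69.0 TPM) made up most of these sums, while Klk1 was listed at 0 in all 9 libraries, Ly6d at 0 in double-negative and CX3CR1+ libraries, and Ccr9 reached at most 0.267 TPM. The part of such cells in the differences from CCR2+ cells was not tested. Rtp4, an interferon-induced protein of the receptor transporter family, was at 11.7, 11.5 and 17.1 TPM in double-negative, 3.06, 2.66 and 4.78 in CCR2+ and 6.90, 4.66 and 6.15 in CX3CR1+ libraries. Double-negative libraries were above all others (log2 fold change -1.69, SE 0.24, adjusted p = 4.82e-04 for CCR2+ cells). The CX3CR1+ difference was near the threshold (log2 fold change -1.06, adjusted p = 0.0456) and was lost under 17 of 22 other settings.

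**Figure D4:**
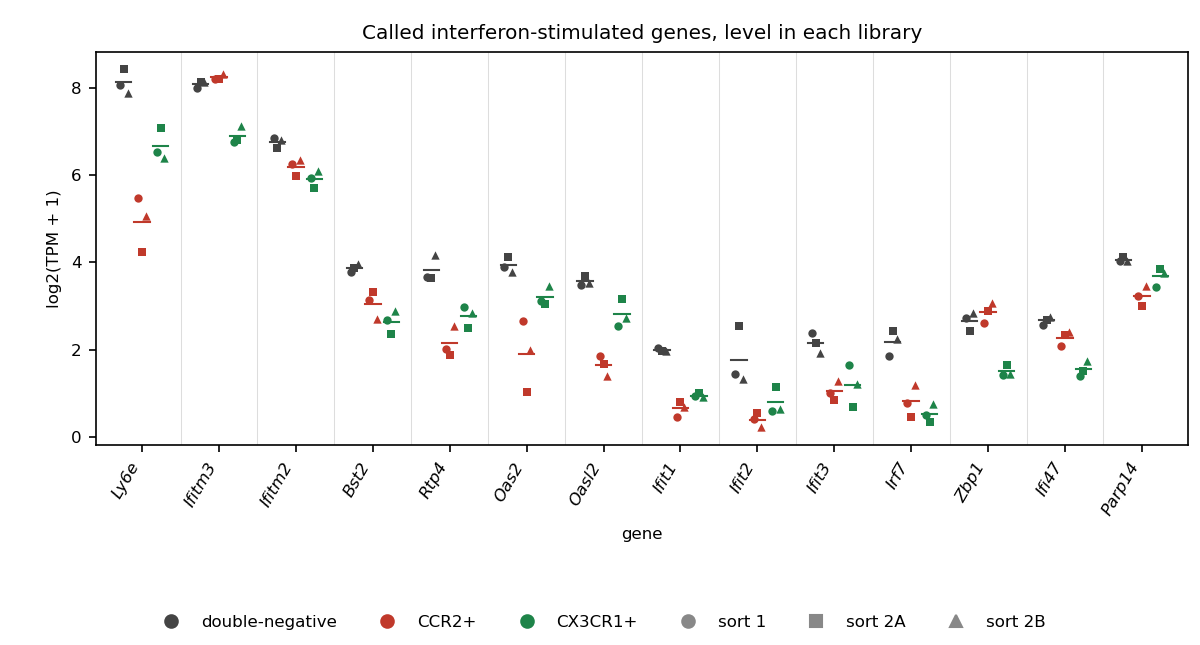
Level in each library, as log2(TPM + 1) (y axis), of 14 genes called in at least 1 comparison (x axis), by population (colour) and sort (marker), with a short line at the mean of the 3 libraries. Means of Ly6e, Oas2, Oasl2, Ifit1, Ifit2, Ifit3, Rtp4 and Parp14 fall in the order double-negative, CX3CR1+, CCR2+. Those of Zbp1, Ifi47, Ifitm3, Ifitm2, Bst2 and Irf7 are lowest in CX3CR1+ cells.

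Of the RNA-binding effectors and sensors, 13 of 14 were tested. In CCR2+ against double-negative cells 7 were lower, and in CX3CR1+ against double-negative cells 3 were lower, with none higher in either. Of all genes tested, 9.88% and 1.61% were lower there. The oligoadenylate synthetases make a short-lived messenger that switches on RNase L when double-stranded RNA is present. Oas2, 3245 bases from Oas3 on chromosome 5, was at 14.0, 16.6 and 12.6 TPM in double-negative, 5.30, 1.03 and 2.99 in CCR2+ and 7.62, 7.28 and 10.1 in CX3CR1+ libraries. No CCR2+ library reached the level of any other library. The gene fell in CCR2+ cells (log2 fold change -2.04, SE 0.35, adjusted p = 0.00159), and CX3CR1+ cells were above CCR2+ cells (log2 fold change 1.32, SE 0.35, adjusted p = 0.0181). Oasl2, a relative that lies 11006 bases from Oasl1, followed the same order, at 10.1, 11.9 and 10.5 TPM in double-negative, 2.59, 2.17 and 1.63 in CCR2+ and 4.85, 7.97 and 5.66 in CX3CR1+ libraries. It differed between CCR2+ and double-negative cells (log2 fold change -1.93, SE 0.21, adjusted p = 8.70e-05) and between CX3CR1+ and CCR2+ cells (log2 fold change 1.18, SE 0.21, adjusted p = 0.00221). CX3CR1+ cells were below double-negative cells in every library for both genes, but neither difference passed the test (adjusted p = 0.359 for Oas2 and 0.103 for Oasl2).

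Oas1a and Oasl1 had other orders. Oas1a was at 4.61, 5.44 and 2.99 TPM in double-negative, 2.79, 3.05 and 5.84 in CCR2+ and 6.66, 5.11 and 5.66 in CX3CR1+ libraries, with its highest mean in CX3CR1+ cells, and the ranges overlapped in all comparisons. Oasl1 was at 1.15, 1.54 and 1.36 TPM in double-negative, 0.714, 0.384 and 0.929 in CCR2+ and 0.141, 0.152 and 0.443 in CX3CR1+ libraries, with its lowest mean in CX3CR1+ cells. It passed the filter through the double-negative libraries alone, and its call in CX3CR1+ cells (log2 fold change -0.92, adjusted p = 0.0426) was lost in 9 of 15 other settings, among them no filter on low values (adjusted p = 0.154) and the sort as a replicate block (adjusted p = 0.0595). Oas3 was at 0.478 to 1.03 TPM in double-negative, 0.163 to 0.560 in CCR2+ and 0.217 to 0.413 in CX3CR1+ libraries, too low to be tested. Oas1g, a near copy of Oas1a, was at 1.62, 3.24 and 3.06 TPM in double-negative, 0.977, 0.179 and 0.363 in CCR2+ and 1.19, 1.62 and 1.32 in CX3CR1+ libraries. It is no member, had the order of Oas2 and Oasl2, and was called lower in CCR2+ than in double-negative cells (log2 fold change -1.28, adjusted p = 0.00497). No CCR2+ library reached 1 TPM for Oas1g, so it passed the filter through the other populations, where it is higher. It was named after its values were seen. Oas1b, on the same list, overlapped in all comparisons and was not called (adjusted p = 0.208 in CCR2+ against double-negative cells). Oas1c was not tested, and its mean was lowest in double-negative cells (0.360 TPM, against 0.565 in CCR2+ and 0.595 in CX3CR1+ cells). Reads of such copies can be assigned to any of them, so the single Oas1 values are uncertain.

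The Ifit genes, which lie near each other on chromosome 19, encode related proteins, of which that of Ifit1 binds RNA lacking the host's cap modification. All 3 had their highest mean in double-negative cells. Ifit1 (chr19:34640871-34650009, plus strand) was at 3.07, 2.89 and 2.89 TPM in double-negative, 0.374, 0.738 and 0.610 in CCR2+ and 0.895, 0.993 and 0.873 in CX3CR1+ libraries. The double-negative libraries were nearly equal and lay far above the other 6, with a mean 5.14-fold that of CCR2+ cells (log2 fold change -1.33, SE 0.18, adjusted p = 3.60e-04) and 3.20-fold that of CX3CR1+ cells (log2 fold change -1.04, SE 0.18, adjusted p = 0.0135). Because it passed the filter only through the population where it is high, the values with no filter on low values matter here: the CCR2+ difference was called without the filter (adjusted p = 0.00219), while the CX3CR1+ one was not (adjusted p = 0.0559), nor was it after rescaling. Ifit2 was at 1.71, 4.82 and 1.51 TPM in double-negative, 0.325, 0.455 and 0.162 in CCR2+ and 0.497, 1.22 and 0.542 in CX3CR1+ libraries, and Ifit3 at 4.22, 3.47 and 2.77 TPM in double-negative, 1.01, 0.783 and 1.43 in CCR2+ and 2.12, 0.607 and 1.31 in CX3CR1+ libraries. Both were called lower in CCR2+ cells (log2 fold change -1.38, adjusted p = 0.00989 and log2 fold change -1.11, adjusted p = 0.012). Both also lay below every double-negative library in CX3CR1+ cells, without passing the test (adjusted p = 0.167 and 0.0974). Double-negative library 2A was the high one for Ifit2, and the fold changes of Ifit genes are on the log2(TPM + 1) scale, which understates differences at so few TPM. The Ifit3 copy Ifit3b was at 0.433 to 1.10 TPM in double-negative libraries.

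Among the cytosolic nucleic acid sensors, the orders differed from gene to gene. Ifih1, which encodes MDA5, was at 9.12, 8.79 and 9.31 TPM in double-negative, 6.69, 3.82 and 5.90 in CCR2+ and 6.64, 5.75 and 5.95 in CX3CR1+ libraries. Ddx58, which encodes RIG-I, was at 4.05, 6.04 and 7.85 TPM in double-negative, 2.46, 2.49 and 2.81 in CCR2+ and 4.04, 6.10 and 3.46 in CX3CR1+ libraries. Both were called lower in CCR2+ than in double-negative cells (log2 fold change -0.67, adjusted p = 0.0317 and log2 fold change -0.92, adjusted p = 0.0217), and neither in CX3CR1+ cells. Dhx58, the third gene of this family, was at 1.62 to 3.16, 1.95 to 2.59 and 0.964 to 2.54 TPM in double-negative, CCR2+ and CX3CR1+ libraries, which overlapped. Zbp1, a sensor of left-handed nucleic acid that can start necroptosis, was at 5.63, 4.38 and 6.12 TPM in double-negative, 5.11, 6.39 and 7.40 in CCR2+ and 1.68, 2.14 and 1.71 in CX3CR1+ libraries. As with Ifitm3, the CX3CR1+ libraries were below the other 6 (log2 fold change -1.16, SE 0.20, adjusted p = 0.0133 against double-negative and log2 fold change -1.35, SE 0.20, adjusted p = 7.04e-04 against CCR2+ cells). Eif2ak2, the RNA-activated kinase PKR, ranged from 2.54 to 7.57 TPM within the double-negative libraries alone. All but 2 of the values elsewhere fell within that range. The exonuclease gene Isg20, the member with its lowest mean in double-negative cells, was at 0.596 to 0.669 TPM there, 0.557 to 1.86 in CCR2+ and 0.354 to 2.23 in CX3CR1+ libraries. Neither was called.

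Of the 3 transcription factor genes, Irf7 was called and Irf9 and Stat2 were not. Irf7 (chr7:141262706-141266481, minus strand), which amplifies the production of type I interferon, was at 2.63, 4.35 and 3.72 TPM in double-negative, 0.705, 0.376 and 1.29 in CCR2+ and 0.404, 0.270 and 0.680 in CX3CR1+ libraries. The lowest double-negative library was above the highest of the others, and the mean was 4.52-fold that of CCR2+ (log2 fold change -1.37, SE 0.25, adjusted p = 0.00244) and 7.91-fold that of CX3CR1+ cells (log2 fold change -1.65, SE 0.25, adjusted p = 0.00646). Irf9, the DNA-binding part of the complex with Stat2, was at 7.04, 6.01 and 8.59 TPM in double-negative, 4.38, 4.82 and 5.05 in CCR2+ and 5.24, 6.73 and 4.94 in CX3CR1+ libraries. The CCR2+ libraries lay below the double-negative ones without a call (adjusted p = 0.0791). Stat2 was at 4.37, 8.83 and 5.39 TPM in double-negative, 2.52, 3.13 and 3.03 in CCR2+ and 7.92, 3.03 and 3.83 in CX3CR1+ libraries, with double-negative library 2A and CX3CR1+ library 1 standing above the rest of their populations. Its difference between CCR2+ and double-negative cells had an adjusted p of 0.0819.

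The ubiquitin-like and ADP-ribose modifiers held 1 call among 6 genes, lower in CCR2+ than in double-negative cells, where 9.88% of all genes were lower. Parp14, an ADP-ribosyltransferase, was at 15.3, 16.5 and 15.4 TPM in double-negative, 8.36, 6.98 and 9.97 in CCR2+ and 9.80, 13.5 and 12.5 in CX3CR1+ libraries, and was lower in CCR2+ than in double-negative cells (log2 fold change -0.84, SE 0.18, adjusted p = 0.00586). Isg15, which encodes a small protein that is joined to other proteins as ubiquitin is, was at 1.52, 1.19 and 0.826 TPM in double-negative, 0.875, 1.32 and 0.255 in CCR2+ and 0, 0.190 and 1.21 in CX3CR1+ libraries. All 9 values were under 2 TPM and the populations overlapped. Usp18, the protease that removes Isg15, was at 1.43 to 2.48, 0.655 to 1.97 and 1.46 to 1.86 TPM, also overlapping. Parp9 (2.64 to 3.61, 2.80 to 4.21 and 1.89 to 2.54 TPM) and its partner Dtx3l (10.2 to 13.2, 8.08 to 9.48 and 7.35 to 9.08 TPM) share 458 exon bases on opposite strands. No source used here states the strand of counting, so reads from that stretch cannot be told apart. Trim30a, a ubiquitin ligase gene and the fourth most abundant member, was at 22.7, 25.4 and 30.9 TPM in double-negative, 20.0, 15.9 and 19.6 in CCR2+ and 20.3, 21.8 and 19.6 in CX3CR1+ libraries, and missed the threshold in CCR2+ cells (adjusted p = 0.0529).

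Of the 5 dynamin-like and immunity-related GTPases, 1 was lower in CCR2+ and 1 in CX3CR1+ than in double-negative cells, and 2 were lower in CX3CR1+ than in CCR2+ cells. Of all genes tested, 9.88%, 1.61% and 17.3% were lower in these comparisons. Ifi47, one of the GTPases that act on vacuoles holding pathogens, was at 4.92, 5.43 and 5.75 TPM in double-negative, 3.22, 4.03 and 4.31 in CCR2+ and 1.63, 1.84 and 2.32 in CX3CR1+ libraries. It was lower in CX3CR1+ cells than in double-negative (log2 fold change -1.12, adjusted p = 0.0111) and CCR2+ cells (log2 fold change -0.73, adjusted p = 0.0158). Igtp (3.83 to 4.50, 1.33 to 3.16 and 2.56 to 3.27 TPM) and Irgm1 (4.48 to 6.56, 2.92 to 3.58 and 2.58 to 3.18 TPM) had no overlap between double-negative and either other population, but no difference passed the test. The smallest adjusted p for these genes was 0.0558 for Igtp and 0.0629 for Irgm1, both against CCR2+ cells. Mx2 was at 2.04, 1.64 and 1.50 TPM in double-negative, 0.371, 0.176 and 0.720 in CCR2+ and 1.13, 0.575 and 1.44 in CX3CR1+ libraries, and fell in CCR2+ cells (log2 fold change -0.95, adjusted p = 0.0128). Its neighbour Mx1, 72401 bases away, was at 2.59, 3.68 and 4.32 TPM in double-negative, 4.14, 3.95 and 5.35 in CCR2+ and 1.94, 2.12 and 2.73 in CX3CR1+ libraries and was called lower in CX3CR1+ than in CCR2+ cells (log2 fold change -0.75, adjusted p = 0.0278). Both belong to the family of dynamin-like GTPases. Mx2 had the opposite sign between these populations without a call (log2 fold change 0.52, adjusted p = 0.131). In the annotation, Igtp shares 162 exon bases with Irgm2 on the same strand.

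In the last role group, nucleotide metabolism and other effectors, 5 of 6 genes were tested. Xaf1, which promotes apoptosis, was at 3.98, 2.80 and 3.90 TPM in double-negative, 1.95, 1.38 and 1.53 in CCR2+ and 2.71, 2.07 and 1.75 in CX3CR1+ libraries, and was lower in CCR2+ than in double-negative cells (log2 fold change -0.80, adjusted p = 0.0184). Samd9l, a restriction factor for poxviruses, was at 11.7, 9.91 and 12.6 TPM in double-negative, 14.2, 14.9 and 15.5 in CCR2+ and 10.8, 9.54 and 8.29 in CX3CR1+ libraries. CCR2+ libraries were the highest for this gene, and the call was against CX3CR1+ cells (log2 fold change -0.60, adjusted p = 0.0198). Rsad2, which encodes viperin, and its neighbour Cmpk2, 12752 bases away, both act on nucleotides. Rsad2 ranged over 0.932 to 3.74 TPM in double-negative, 0.219 to 1.29 in CCR2+ and 0.869 to 2.19 in CX3CR1+ libraries, and Cmpk2 over 1.32 to 2.05, 0.532 to 0.886 and 0.756 to 1.78 TPM. Neither was called, with adjusted p = 0.0883 and 0.075 against CCR2+ cells. Ifi35 (3.02 to 3.94, 3.08 to 5.42 and 1.67 to 3.80 TPM) overlapped throughout, and Ifi44 stayed at or below 0.198 TPM.

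How far these calls hold differed by comparison. In CCR2+ against double-negative cells, Oas2, Oasl2, Irf7, Ly6e and Rtp4 (5 of the 14 calls other than Ifit1) were called in every one of the 20 to 22 alternative settings in which they were tested. In CX3CR1+ against CCR2+ cells this held for Oasl2, Zbp1, Ifitm3 and Ly6e (4 of 8), and in CX3CR1+ against double-negative cells for 0 of 10. No called member changed direction under any alternative run. Ifit1 and Oasl1 did not pass the filter when any double-negative library was left out, so they were not tested there, and the 15 settings in which they were tested say less about them. Irf7, tested in 20 settings, also needed double-negative libraries to pass the filter. Single libraries decided several of the other calls. Against double-negative cells, the CCR2+ call was lost without double-negative library 1 for Ifit3 (adjusted p = 0.0515), Ifih1, Ifitm2, Mx2 and Xaf1, without library 2A for Ifih1, Ddx58 and Bst2, and without library 2B for Ifih1, Ddx58, Bst2, Ifitm2 and Xaf1. It was also lost without CCR2+ library 1 for Ddx58, without 2A for Ifih1, Ddx58, Ifitm2, Mx2 and Xaf1, and without 2B for Ifih1, Bst2 and Xaf1. The highest adjusted p in these fits was 0.104 for Ifih1, 0.084 for Ddx58, 0.0603 for Bst2, 0.0783 for Ifitm2, 0.0565 for Mx2 and 0.072 for Xaf1. For CX3CR1+ against double-negative cells, the call was lost without double-negative library 1 for Zbp1, Ifitm2, Ly6e and Rtp4, without 2A for Bst2, Ly6e, Rtp4 and Ifi47, and without 2B for all 6 of these. Leaving out CX3CR1+ library 1 ended the call for Oasl1, Ly6e and Rtp4, 2A that for Oasl1, Ifitm2 and Rtp4, and 2B that for Ly6e and Rtp4. Leaving out a CCR2+ library, which changes the shared spread and the genes tested, ended it for Oasl1 (1 and 2B), Rtp4 (1) and Ly6e (2B). The highest adjusted p was 0.115 for Oasl1, 0.0679 for Zbp1, 0.0597 for Bst2, 0.0824 for Ifitm2, 0.122 for Ly6e, 0.176 for Rtp4 and 0.059 for Ifi47. Between the reporter-positive populations, Oas2 was lost without CX3CR1+ library 2B (adjusted p = 0.0581). Mx1 was lost without library 1 of either population, CX3CR1+ 2A or CCR2+ 2B (up to 0.1), Ifi47 without CX3CR1+ 1, CCR2+ 2A or CCR2+ 2B (up to 0.0592), and Samd9l without CCR2+ 2A, CX3CR1+ 2B or CCR2+ 2B (up to 0.0663).

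TPM depends on the abundant transcripts of a library. In 1 alternative, mitochondrial genes, ribosomal RNA and ribosomal protein genes and Siglece were taken out and the rest rescaled to the full TPM total. This raised the remaining values while the filter and pseudocount stayed the same, so that 14252 genes were tested. The all-gene median moved to -0.14 in CCR2+ against double-negative cells, to 0.08 in CX3CR1+ against double-negative cells and to 0.24 in CX3CR1+ against CCR2+ cells. The medians of the members tested became -0.99, -0.58 and 0.47. In CX3CR1+ against double-negative cells the member median fell while the all-gene median rose, and in the other comparisons both moved the same way. The calls then were 19 lower, 6 lower, and 6 higher with 2 lower, and none higher against double-negative cells.

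Other genes of the pathway were examined for the same comparisons. Interferon transcripts were almost undetected: of 21 ligand genes, 15, Ifnb1 among them, were listed at 0 in all 9 libraries and none was tested. The highest value of any ligand was 1.69 TPM, for Ifnz, which had means of 0.960 ± 0.176 TPM (SD, n = 3) in double-negative, 0.817 ± 0.810 in CCR2+ and 0.285 ± 0.283 in CX3CR1+ cells. The next by mean was Ifnk, at or below 0.263 TPM. The counts of this and the next lists stand beside the shares of all genes, which were 14.9% higher and 9.88% lower in CCR2+ against double-negative cells, 1.16% and 1.61% in CX3CR1+ against double-negative cells, and 8.96% and 17.3% in CX3CR1+ against CCR2+ cells. Some genes, Irf5 and Trex1 among them, are shared between lists and counted in each. Of 9 tested receptor, kinase and STAT genes, 1 was higher and 1 lower in CCR2+ than in double-negative cells, near the shares of all genes. None was called in CX3CR1+ against double-negative cells, where few genes were, and 2 were higher and 2 lower in CX3CR1+ than in CCR2+ cells.

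Ifnar2, a chain of the type I receptor, was at 22.9, 24.8 and 25.5 TPM in double-negative, 13.9, 16.2 and 16.8 in CCR2+ and 23.2, 26.8 and 23.3 in CX3CR1+ libraries. CCR2+ cells were below both others (log2 fold change -0.61, adjusted p = 0.00934 against double-negative, and log2 fold change 0.61, adjusted p = 0.0093 for CX3CR1+ against CCR2+ cells). Ifnar1, the other chain, was called between the reporter-positive populations (8.95, 13.7 and 10.8 TPM in CCR2+ and 17.9, 15.9 and 16.8 in CX3CR1+ libraries, log2 fold change 0.57, adjusted p = 0.0403). Jak2, a kinase of the interferon-gamma receptor, went the other way, with 3.42, 3.69 and 3.93 TPM in double-negative, 8.34, 11.3 and 10.4 in CCR2+ and 5.01, 6.19 and 4.0 in CX3CR1+ libraries (log2 fold change 1.23, adjusted p = 0.00101 for CCR2+ against double-negative cells). Stat3 was lower in CX3CR1+ than in CCR2+ cells (log2 fold change -1.09, adjusted p = 0.00401). Jak1 (41.9 ± 5.16 and 38.0 ± 6.84 TPM, SD, n = 3) and Ifngr1 (22.8 ± 1.65 and 26.4 ± 7.42 TPM), the most abundant of the list, overlapped between double-negative and CX3CR1+ cells.

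**Figure D5:**
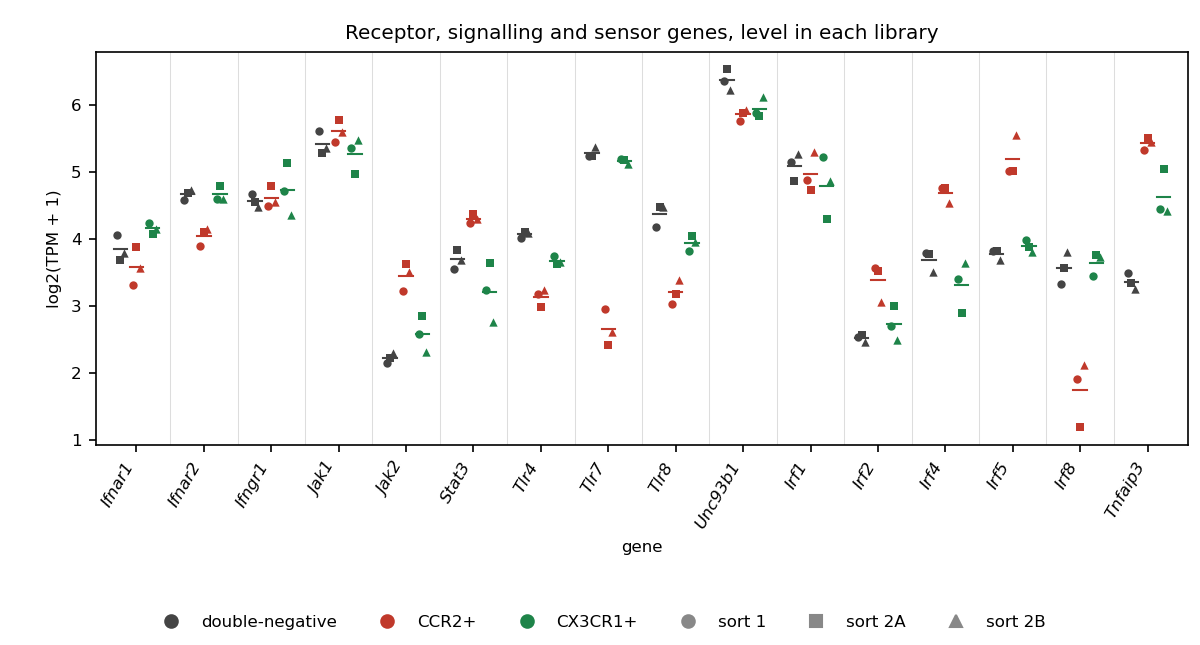
Level in each library, as log2(TPM + 1) (y axis), of receptor, kinase, STAT, sensor and regulator genes (x axis), by population (colour) and sort (marker), with a short line at the mean of the 3 libraries. Tlr7, Tlr8 and Irf8 are lowest and Irf5, Jak2 and Tnfaip3 highest in the 3 CCR2+ libraries.

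Of 17 tested sensors and adaptors that lead to interferon production, 3 were higher and 4 lower in CCR2+ than in double-negative cells (14.9% and 9.88% of all genes). None was called in CX3CR1+ against double-negative cells, where 1.16% and 1.61% of all genes were, and 4 were higher and 2 lower in CX3CR1+ than in CCR2+ cells. Tlr7, the endosomal receptor for single-stranded RNA, was at 36.9, 36.8 and 40.5 TPM in double-negative, 6.73, 4.37 and 5.11 in CCR2+ and 35.7, 35.3 and 34.0 in CX3CR1+ libraries. The difference was 7.05-fold between double-negative and CCR2+ means (log2 fold change -2.63, SE 0.16, adjusted p = 3.64e-06), while CX3CR1+ and double-negative cells were close (adjusted p = 0.794). Tlr8 (log2 fold change -1.17, adjusted p = 4.27e-04) and Tlr4 (log2 fold change -0.93, adjusted p = 8.97e-04) were also lower in CCR2+ cells. Unc93b1, which carries the endosomal receptors to their compartment, was at 82.0 ± 8.93 TPM in double-negative and 57.1 ± 3.33 in CCR2+ cells (SD, n = 3). It was called lower in CCR2+ cells (log2 fold change -0.51, adjusted p = 0.0213). In CX3CR1+ cells Unc93b1 was at 60.8 ± 6.58 TPM, without a call against double-negative cells (adjusted p = 0.163).

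Of 6 tested interferon regulatory factors outside the member list, 3 were higher, 1 was lower and 2 were not called in CCR2+ against double-negative cells (14.9% of all genes higher and 9.88% lower). None was called in CX3CR1+ against double-negative cells, and 1 was higher and 3 lower in CX3CR1+ than in CCR2+ cells. Irf8, a factor of macrophage and dendritic cell development, was at 9.07, 10.8 and 13.0 TPM in double-negative, 2.76, 1.29 and 3.34 in CCR2+ and 9.89, 12.6 and 12.2 in CX3CR1+ libraries (log2 fold change -1.83, adjusted p = 4.06e-04 for CCR2+ against double-negative cells). Irf5, which drives inflammatory cytokines, was at 13.1, 13.2 and 11.9 TPM in double-negative, 31.2, 31.5 and 46.0 in CCR2+ and 14.8, 13.7 and 13.1 in CX3CR1+ libraries (log2 fold change 1.42, adjusted p = 1.87e-04). Irf4 and Irf2 were higher in CCR2+ cells too (log2 fold change 0.99, adjusted p = 0.00482 and log2 fold change 0.87, adjusted p = 0.00992). Irf1, the most abundant of the group between double-negative and CX3CR1+ cells, was at 33.4 ± 4.70 and 27.8 ± 8.89 TPM (SD, n = 3), which overlapped.

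Of 14 tested negative regulators, 3 were higher and 1 lower in CCR2+ than in double-negative cells, near the 14.9% and 9.88% of all genes. In the other comparisons, 1 was higher in CX3CR1+ than in double-negative cells, and 4 were lower in CX3CR1+ than in CCR2+ cells. Tnfaip3, which encodes the ubiquitin-editing protein A20, was at 10.3, 9.17 and 8.56 TPM in double-negative, 39.2, 44.4 and 42.9 in CCR2+ and 20.8, 32.0 and 20.3 in CX3CR1+ libraries. The populations did not overlap, and both reporter-positive ones were above the double-negative one (log2 fold change 2.06, adjusted p = 2.66e-05 and log2 fold change 1.27, adjusted p = 0.00535). The phosphatase genes Ptpn2 and Ptpn11 were higher in CCR2+ than in double-negative cells (log2 fold change 0.79, adjusted p = 0.00938 and log2 fold change 1.23, adjusted p = 0.0277), and the DNA exonuclease gene Trex1 was lower (log2 fold change -0.52, adjusted p = 0.0208). Samhd1, which depletes nucleotides, was lower in CX3CR1+ than in CCR2+ cells (log2 fold change -1.26, adjusted p = 0.00239).

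Another list held 64 tested genes known to respond to interferon, none of them members. Some, such as Trex1 and Samhd1, are also counted above. In CCR2+ against double-negative cells, 20 were lower and 8 higher. In CX3CR1+ cells, 3 were lower and 1 higher than in double-negative cells, and 14 lower and 10 higher than in CCR2+ cells. Of all genes, 9.88% were lower and 14.9% higher in the first comparison, 1.61% and 1.16% in the second and 17.3% and 8.96% in the third. The median log2 fold changes of the 64 were -0.11, -0.36 and -0.14, against 0.09, -0.03 and -0.11 over all genes. Those with the smallest p included Ms4a6b (49.1, 55.9 and 71.4 TPM in double-negative, 7.81, 3.85 and 5.65 in CCR2+ and 50.3, 57.2 and 51.9 in CX3CR1+ libraries) and the DNA-binding factor gene Ifi207 (194, 194 and 175 TPM in double-negative, 48.0, 23.9 and 32.8 in CCR2+ and 182, 144 and 170.4 in CX3CR1+ libraries). Both were low in CCR2+ cells, with log2 fold changes of -3.17 (adjusted p = 6.83e-06) and -2.45 (adjusted p = 2.59e-05) against double-negative cells. Ifi204, of the same family, fell as well (log2 fold change -2.44, adjusted p = 2.09e-05), while Ifi209 was higher in CCR2+ than in CX3CR1+ cells (log2 fold change -1.56, adjusted p = 7.91e-05). Ddx60, a helicase gene, was at 16.8, 17.3 and 19.4 TPM in double-negative, 3.11, 1.60 and 3.98 in CCR2+ and 4.35, 5.85 and 6.14 in CX3CR1+ libraries, and both reporter-positive populations were below the double-negative one (log2 fold change -2.32, adjusted p = 7.09e-05 and log2 fold change -1.55, adjusted p = 0.00832). Ifi27l2a was lower in CX3CR1+ than in double-negative cells (log2 fold change -1.52, adjusted p = 0.0125).

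Cxcl10 and Ifitm6 were lower in every double-negative than in every CCR2+ library. Cxcl10, a chemokine gene, was at 0.803, 0.462 and 1.25 TPM in double-negative, 9.15, 7.33 and 16.8 in CCR2+ and 4.04, 6.87 and 4.19 in CX3CR1+ libraries, and was higher in CX3CR1+ than in double-negative cells (log2 fold change 1.71, SE 0.31, adjusted p = 0.0178). It reached 1 TPM in 1 double-negative library, so it passed the filter only with the reporter-positive libraries, where it is high. Ifitm6, a relative of Ifitm2 and Ifitm3, was at 24.5, 17.3 and 26.6 TPM in double-negative, 126, 87.3 and 126 in CCR2+ and 3.67, 11.0 and 7.74 in CX3CR1+ libraries. It was highest in CCR2+ cells and lowest in CX3CR1+ cells (log2 fold change -3.84, adjusted p = 2.32e-05 between them, and log2 fold change -1.57, adjusted p = 0.0291 for CX3CR1+ against double-negative cells).

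A last list held GTPase and MHC regulator genes that interferon-gamma is best known to induce. Of 14 tested, 5 were higher and 3 lower in CCR2+ than in double-negative cells (14.9% and 9.88% of all genes), 1 was lower in CX3CR1+ than in double-negative cells (1.61%), and 2 were higher and 6 lower in CX3CR1+ than in CCR2+ cells (8.96% and 17.3%). Ciita, the master regulator of MHC class II genes, was at 0.771, 1.62 and 1.50 TPM in double-negative, 10.7, 15.4 and 12.1 in CCR2+ and 2.57, 4.41 and 7.58 in CX3CR1+ libraries (log2 fold change 2.59, adjusted p = 1.72e-04 for CCR2+ against double-negative cells). MHC class II staining was part of the sort, so this gene is tied to how the populations were defined. Gbp2b, a guanylate-binding protein gene, was higher in CCR2+ than in double-negative cells (log2 fold change 1.98, adjusted p = 6.48e-04). Its means were 0.667 TPM in double-negative, 5.52 in CCR2+ and 0.147 in CX3CR1+ cells. It reached 1 TPM in 1, 3 and 0 of their libraries, so it passed the filter only with the CCR2+ libraries, where it is high. Gbp3 and Gbp9 were higher in CCR2+ than in CX3CR1+ cells (log2 fold change -1.59, adjusted p = 7.17e-04 and log2 fold change -0.89, adjusted p = 0.00467). Iigp1 (3.82, 5.56 and 5.26 TPM in double-negative, 0.830, 0.464 and 0.889 in CCR2+ and 1.10, 2.20 and 1.93 in CX3CR1+ libraries) and Gm4951 (7.23, 8.50 and 6.05 TPM in double-negative, 0.466, 0.191 and 0.802 in CCR2+ and 4.44, 4.95 and 3.61 in CX3CR1+ libraries), which belong to the immunity-related GTPases, were lowest in CCR2+ cells (log2 fold change -1.76, adjusted p = 3.22e-04 and log2 fold change -2.48, adjusted p = 2.57e-05). Iigp1 was lower in CX3CR1+ than in double-negative cells as well (log2 fold change -1.11, adjusted p = 0.0345). No CCR2+ library reached 1 TPM for Iigp1 or Gm4951, so both passed the filter through the other populations, where they are higher.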

How the data were processed

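The authors deposited a table of TPM by gene symbol with a column for each library. The submitters' processing notes name Salmon 0.11.3, cutadapt 1.8.3, bcl2fastq 2.18 and mm10. Transcript annotation and strand: not given in the sources used here. TPM keeps no counts, so the number of libraries (3 per population) sets the precision, and p-values measure the spread between these sorted samples.

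Libraries were grouped by title, which equals the column heading. The description field names the other reporter population for the 6 reporter-positive samples and was not used. The limma package (3.58.1, under R 4.3.3) was fitted to log2(TPM + 1) (a mean per population over 9 libraries, moderated variance with intensity trend, 2-sided, Benjamini-Hochberg over 10136 genes), and the fit was tested on simulated data. Because the design text gives 3 mice as the 3 replicates, the sort label was read as the animal. Deviations of same-sort libraries correlated at 0.0315 to 0.205, and those of libraries from different sorts at -0.160 to 0.112. The main fit did not use this pairing, and the block was run as an alternative. Members and gene lists were chosen with earlier results of these data known, and a few listed genes are not reported here. The rule named all members, and of each other list up to 4 called genes by smallest p, or the 2 of highest mean if no gene was called. Oas1b, Oas1c, Oas1g and Ifit3b were named beyond this rule, after their values were seen. The 22 alternatives changed pseudocount, filter, scaling, model or the libraries used. Coordinates are GENCODE M21 (GRCm38, the assembly of mm10), 1-based.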

Additional observations from a re-analysis of the deposited data

How the results depend on the processing

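The 15, 10 and 8 called members kept their direction in every alternative in which they were tested, and no member was called higher than in double-negative cells in any of them. Members lower in CCR2+ than in double-negative cells ranged from 9 to 16 when single libraries were left out and were 6 without sort 1, 2A or 2B. Members lower in CX3CR1+ than in double-negative cells were 6 with no filter, 6 with a filter at 5 TPM, 6 after rescaling, 2 to 10 without single libraries, and 0, 2 and 1 without sorts 1, 2A and 2B. In CX3CR1+ against CCR2+ cells, 6 were higher after rescaling, and the lower calls were 3 with a filter at 5 TPM, 2 after rescaling, 3 with quantile normalization, 2 to 5 without single libraries, and 2, 3 and 2 without sorts 1, 2A and 2B. With the sort as a replicate block the counts were 15 lower, 8 lower, and 4 higher with 5 lower. Apart from Ly6e and Oasl1, given above, it changed the call of Rtp4 alone, which was then called higher in CX3CR1+ than in CCR2+ cells. Over all genes, the split of higher to lower calls moved from 1512 and 1001 to 1008 and 1307 after rescaling and to 1107 and 1136 with quantile normalization in CCR2+ against double-negative cells. It moved from 118 and 163 to 128 and 99 after rescaling in CX3CR1+ against double-negative cells, and from 908 and 1758 to 1580 and 971 after rescaling and to 1110 and 1158 with quantile normalization in CX3CR1+ against CCR2+ cells. The causes were not tested.

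Changes of sign occurred in members without a call in the comparison concerned. Against double-negative cells, the log2 fold change of CCR2+ cells was 0.054 without sort 1 and 0.11 without sort 2A for Oas1a (-0.42 to 0.0055 without single libraries). For Dhx58 it was -0.0021 with a pseudocount of 5, -0.038 with median-of-ratios scaling, -0.17 after rescaling, -0.043 with quantile normalization, -0.077 without sort 1, -0.018 without sort 2A and -0.17 to 0.17 without single libraries. For Parp9 it was -0.082 after rescaling, -0.10 without sort 2B and -0.057 to 0.20 without single libraries, and for Ifitm3 -0.052 after rescaling and -0.25 with quantile normalization. For CX3CR1+ against double-negative cells, Eif2ak2 was at -0.53 without sort 2A, -0.059 without sort 2B and -0.29 to 0.41 without single libraries, Ddx58 at 0.0044 without sort 2B, Stat2 at 0.16 without sort 2A and Dhx58 at -0.37 to 0.087 without single libraries. For CX3CR1+ against CCR2+ cells, Ifit3 was at -0.11 without sort 1 and -0.095 to 0.38 without single libraries, Isg20 at -0.010 to 0.48, Ifih1 at -0.037 to 0.30 and Dhx58 at -0.34 to 0.081 without single libraries. Dtx3l was at 0.17 after rescaling and 0.091 with quantile normalization, Ifitm2 at 0.026 and 0.11, and Irgm1 at 0.13 after rescaling.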
